A study of Oryza sativa with 12 samples.

Results

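Transcripts of 10 rice genes that encode enzymes of the shikimate pathway and the first enzyme beyond it were followed through 12 libraries. The genes were 3 DAHP synthases, 1 bifunctional dehydroquinate dehydratase/shikimate dehydrogenase, 3 shikimate kinases, 1 EPSP synthase, 1 chorismate synthase and 1 chorismate mutase. They were taken by locus identifier from a table of 50708 rows, using the row with the highest mean count over all libraries where more than 1 row held a locus. A locus whose description named another kind of enzyme was to be dropped, and none was. All 10 had a row, and all 10 were among the 33281 rows with counts high enough to test. Rows were thus chosen by their mean count, and the genes themselves were picked with earlier results of these data in view, so their levels and stress responses are given as a description of these enzymes and not as independent evidence that the pathway was singled out.

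Both lines are near-isogenic rice: XN0437S is labelled heat-sensitive and XN0437T heat-tolerant, a difference seen while the grains fill. Each line had 3 control libraries and 3 libraries from plants under high night temperature stress. The labels name the material only as rice, and the sources used here do not state which organ was taken, how warm the nights were or how long the stress lasted. No label ties the 3 libraries of a group to separate plants, so each p-value reflects the spread among these libraries alone, and that spread may be technical.

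The shikimate pathway runs in plastids and joins phosphoenolpyruvate from glycolysis to erythrose 4-phosphate from the pentose phosphate pathway, ending in chorismate. Chorismate is the branch point from which plants make tryptophan on one side and phenylalanine and tyrosine on the other, and through them lignin, flavonoids, tocopherols and many other aromatic compounds. DAHP synthase catalyses the entry step, and in plants its genes form a small family, as do those of shikimate kinase.

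Library totals ran from 85496090 to 100353570 counts. Levels are given as CPM, counts divided by library size, with those sizes scaled by TMM, a method that assumes that most genes do not change. Marker genes listed for this work gave a view of the material. The summed level of 5 endosperm markers was 18658 to 18820 CPM in sensitive control libraries, 6950 to 7058 CPM under stress in that line, 19679 to 19866 CPM in tolerant control libraries and 6768 to 6908 CPM in tolerant stress libraries. The sum of 2 embryo markers was 3340 to 3694 CPM in control libraries of both lines and 1782 to 2394 CPM in stress libraries. The sum of 4 green tissue markers was 340.3 to 436 CPM in control and 218 to 263 CPM in stress libraries. The sum of 2 heat-response genes was 1.24 to 3.00 CPM in control and 331 to 476 CPM in stress libraries, in the direction that the treatment labels give. In each line 5 of 5 endosperm and 2 of 2 embryo markers fell under stress (edgeR), with median log2 fold changes of -1.07 and -0.55 in the sensitive and -1.52 and -0.94 in the tolerant line. Of the 4 green tissue markers 2 fell in each line and 1 rose in the sensitive line. The part of tissue make-up in the results that follow was not tested, and in such bulk RNA fewer cells of a type and less RNA per cell cannot be told apart.

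Under stress, 8 of the 10 genes fell in the sensitive line and 9 of the 10 fell in the tolerant line, and none rose in either (edgeR's quasi-likelihood test, adjusted p under 0.05 over all tested rows). Of all tested rows, 15.9% were called lower and 16.3% higher in the sensitive line, 32.1% in all, and 16.6% were called lower and 16.7% higher in the tolerant line, 33.2% in all. The median log2 fold change of the 10 genes was -0.50 in the sensitive line and -0.88 in the tolerant line, against 0.04 and 0.05 over all tested rows. The largest falls were those of a DAHP synthase at the entry and a shikimate kinase in the middle of the pathway. The scale mattered for the smaller falls. With library totals alone, the median of all rows was 0.46 in the sensitive and 0.37 in the tolerant line. That of the 10 genes was -0.08 and -0.57, with 6 and 10 of the 10 negative, against 27.2% and 32.3% of all rows. On that scale 4 and 7 of the 10 genes were called lower, against 6.10% and 8.31% of all rows.

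**Figure D1:**
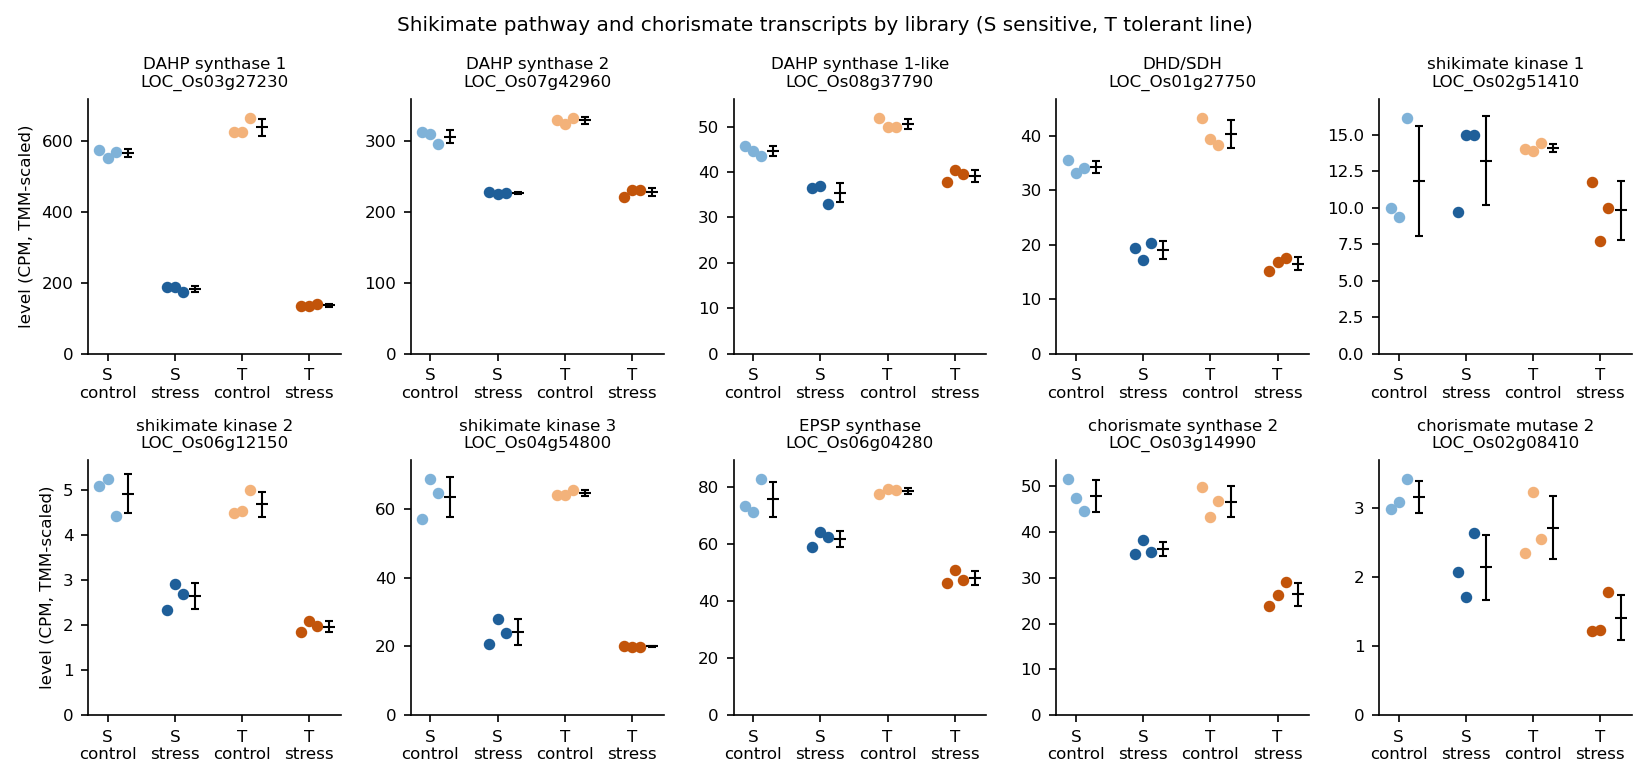
Level of each of the 10 enzymes in every library, in CPM scaled by TMM on the vertical axis, for control and stress libraries of the sensitive (S) and tolerant (T) lines. Each point is 1 library, and the bar beside the points is the mean ± SD of 3 libraries. DAHP synthase 1 went from 553 CPM or more in every control library to 189 CPM or less in every stress library, whereas shikimate kinase 1 overlapped between control and stress in the sensitive line.

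DAHP synthase joins phosphoenolpyruvate and erythrose 4-phosphate and so commits carbon to the pathway. DAHP synthase 1 (LOC_Os03g27230, chromosome 3, 15603830 to 15608753, plus strand) stood at 575, 553 and 568 CPM in the sensitive control libraries and 189, 188 and 173 CPM in the sensitive stress libraries. In the tolerant line it stood at 626, 624 and 665 CPM in control and 133, 134 and 140.4 CPM under stress. Control and stress libraries were far apart in both lines, and the tolerant stress libraries lay below all sensitive stress libraries. The log2 fold change was -1.63 ± 0.05 (SE; adjusted p = 2.81e-10, edgeR) in the sensitive line and -2.23 ± 0.05 (adjusted p = 1.49e-11) in the tolerant line. The response differed between the lines by -0.61 ± 0.07 on the log2 scale (adjusted p = 0.000443, edgeR interaction contrast).

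DAHP synthase 2 (LOC_Os07g42960, chromosome 7, 25726418 to 25730070, minus strand) stood at 312, 310.2 and 295 CPM in sensitive control and 227, 225 and 226 CPM in sensitive stress libraries. Its levels were 329.7, 324 and 333 CPM in tolerant control and 221, 231 and 231 CPM in tolerant stress libraries. Every stress library lay below every control library, and the stress libraries of both lines overlapped. Its log2 fold change was -0.44 ± 0.04 (adjusted p = 6.4e-06, edgeR) in the sensitive and -0.53 ± 0.04 (adjusted p = 8.76e-07) in the tolerant line, and the difference between these responses was -0.10 with a 95% interval of -0.23 to 0.03 (adjusted p = 0.524). With library totals alone the sensitive value was -0.02 and was no longer called.

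DAHP synthase 1-like (LOC_Os08g37790, chromosome 8, 23934856 to 23938888, minus strand) ranged from 43.6 to 45.7 CPM in sensitive control and 32.97 to 36.9 CPM in sensitive stress libraries. In the tolerant line it ranged from 49.9 to 51.9 CPM in control and 37.8 to 40.3 CPM in stress libraries. The groups did not overlap between control and stress within a line. It fell by 0.33 ± 0.07 on the log2 scale (adjusted p = 0.00175, edgeR) in the sensitive line and by 0.37 ± 0.07 (adjusted p = 0.000751) in the tolerant line. With library totals alone these values were 0.08, on the other side of 0, and -0.05, and neither was called.

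The make-up of the family, as well as its size, was set apart between control and stress libraries. Summed over these 3 genes and a further gene of the family with few counts (LOC_Os10g41480), the level was 922 ± 16.6 CPM in sensitive control and 451 ± 11.02 CPM in sensitive stress libraries (mean ± SD, n = 3). It was 1026 ± 28.5 CPM in tolerant control and 409 ± 10.1 CPM in tolerant stress libraries. Shares are of counts and are not corrected for gene length. The share of the family's counts held by DAHP synthase 1 (LOC_Os03g27230) was 61.3% ± 0.815 in sensitive control and 40.6% ± 0.988 in sensitive stress libraries, a difference of -20.69 percentage points. The share was 62.2% ± 0.605 in tolerant control and 33.1% ± 0.617 in tolerant stress libraries, a difference of -29.08 points. DAHP synthase 2 (LOC_Os07g42960) held 33.2% ± 0.830 and 50.2% ± 1.29 in the sensitive line and 32.1% ± 0.554 and 55.6% ± 0.382 in the tolerant line, in control and stress libraries.

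These shares do not depend on how libraries are scaled against each other. They are parts of the same whole, so a fall in the share of a gene raises the sum of the others. The results of the 4 genes are thus not independent of each other. The groups did not overlap between control and stress in either line for any of the 4 genes, nor between the lines under stress, while in control libraries the lines overlapped for all 4. The two-sided exact permutation test gave p = 0.1 for each of those non-overlapping pairs, the smallest that 3 libraries against 3 allow among 20 splits, and 0.175 after adjustment over the 28 share tests made. The 95% Wilson interval of a DAHP synthase share in 1 library reached at most 0.477 points to either side, which covers counting error only. If each fragment was counted 4 times, a possibility that the surplus of counts that are multiples of 4 leaves untested, it reached 0.953 points for DAHP synthases and 3.32 points for shikimate kinases.

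**Figure D2:**
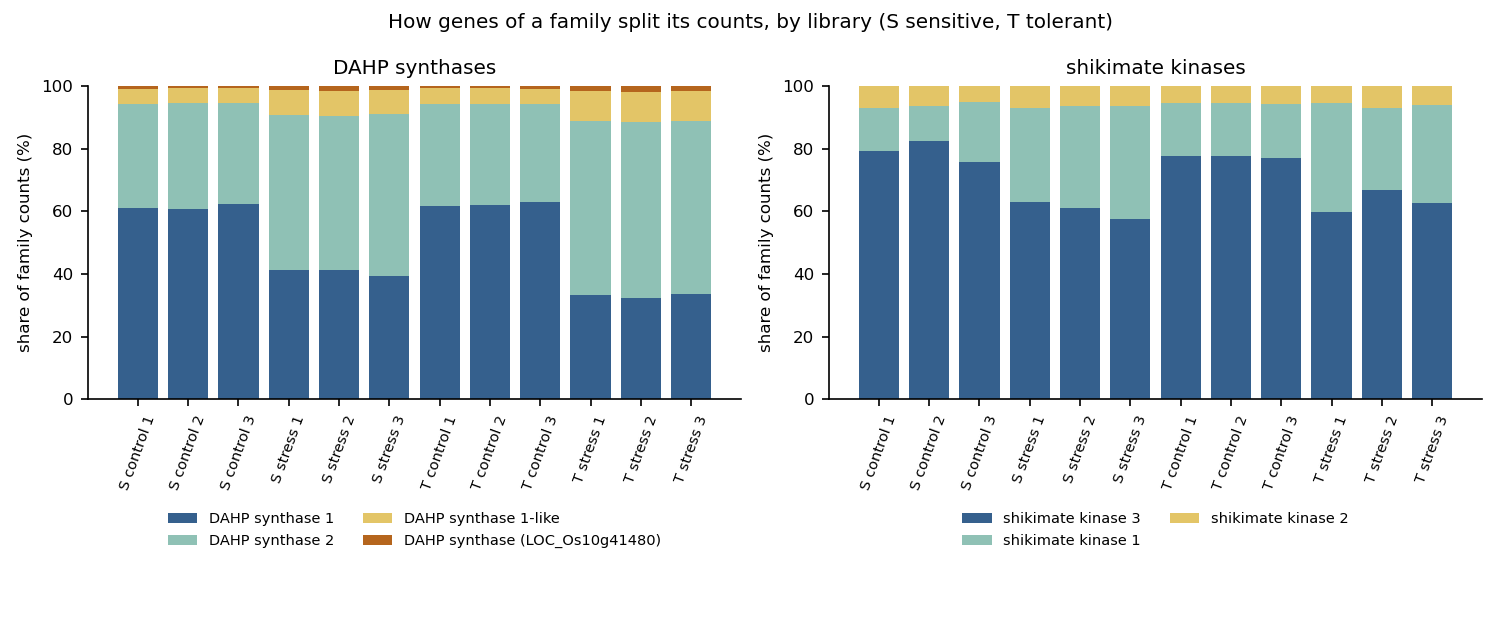
Share of the counts of the DAHP synthase family (left) and of the shikimate kinases (right) held by each gene, in percent on the vertical axis, with 1 stacked bar per library. DAHP synthase 1 held 61.3% and 62.2% on average in sensitive and tolerant control libraries, and 40.6% and 33.1% in the stress libraries.

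The next enzymes named in the table carry the carbon ring towards shikimate. The row of the bifunctional dehydroquinate dehydratase/shikimate dehydrogenase (DHD/SDH, LOC_Os01g27750, chromosome 1, 15479968 to 15493549, plus strand) was named by its orthology and enzyme columns, since its description gives only a partial locus. It stood at 35.5, 33.2 and 34.1 CPM in sensitive control and 19.3, 17.2 and 20.4 CPM in sensitive stress libraries. It stood at 43.3, 39.4 and 38.3 CPM in tolerant control and 15.1, 16.8 and 17.5 CPM in tolerant stress libraries. All stress libraries lay below all control libraries. The log2 fold change was -0.85 ± 0.09 (adjusted p = 1e-05, edgeR) in the sensitive line and -1.29 ± 0.09 (adjusted p = 2.04e-07) in the tolerant line. The difference of responses was -0.44 ± 0.12 and did not pass (adjusted p = 0.0911), although DESeq2 called it (adjusted p = 0.0293). A second row of this locus on the minus strand, with 75 to 236 counts per library, was not used.

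Shikimate kinase adds the phosphate that the following enzyme needs. Shikimate kinase 3 (LOC_Os04g54800, chromosome 4, 32582126 to 32585724, minus strand) stood at 57.1, 68.7 and 64.8 CPM in sensitive control and 20.6, 28.1 and 23.8 CPM in sensitive stress libraries. It stood at 64.1, 64.2 and 65.7 CPM in tolerant control and 20.2, 19.9 and 19.96 CPM in tolerant stress libraries. Control and stress did not overlap in either line. Its log2 fold change was -1.39 ± 0.10 (adjusted p = 6.32e-07, edgeR) in the sensitive and -1.69 ± 0.11 (adjusted p = 8.21e-08) in the tolerant line, with a difference of -0.30 ± 0.15 that did not pass (adjusted p = 0.384).

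Shikimate kinase 1 (LOC_Os02g51410, chromosome 2, 31491660 to 31494999, plus strand) was the gene called in neither line. Its levels were 10.01, 9.35 and 16.2 CPM in sensitive control and 9.72, 14.99 and 15.01 CPM in sensitive stress libraries, which overlapped. In the tolerant line they were 14.03, 13.9 and 14.4 CPM in control and 11.8, 7.72 and 9.99 CPM in stress libraries, with all stress libraries below all control libraries. The log2 fold change was 0.16 ± 0.23 (adjusted p = 0.647, edgeR) in the sensitive line, with a 95% interval of -0.33 to 0.65. In the tolerant line it was -0.52 ± 0.23 (adjusted p = 0.0977), which a fit on the tolerant groups alone called (adjusted p = 0.0324), as did the fit without the third sensitive control library (adjusted p = 0.0455).

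Shikimate kinase 2 (LOC_Os06g12150, chromosome 6, 6495000 to 6497910, minus strand) had the fewest counts of the 3. It ranged from 4.43 to 5.25 CPM in sensitive control, 2.34 to 2.92 CPM in sensitive stress, 4.51 to 5.01 CPM in tolerant control and 1.84 to 2.09 CPM in tolerant stress libraries, with no overlap between control and stress. It fell by 0.89 ± 0.15 on the log2 scale in the sensitive line (adjusted p = 0.000608, edgeR) and by 1.25 ± 0.15 in the tolerant line (adjusted p = 3.83e-05).

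Summed over the 3 shikimate kinases, the level was 80.3 ± 7.07 CPM in sensitive control and 40.1 ± 6.83 CPM in sensitive stress libraries (mean ± SD, n = 3). The sum was 83.5 ± 1.41 CPM in tolerant control and 31.8 ± 2.07 CPM in tolerant stress libraries. Shikimate kinase 3 (LOC_Os04g54800) held 79.1% ± 3.31 of these counts in sensitive control and 60.5% ± 2.87 in sensitive stress libraries, and 77.5% ± 0.291 and 63.1% ± 3.64 in the tolerant line. Shikimate kinase 1 (LOC_Os02g51410) held 14.7% ± 3.93 and 32.8% ± 3.17 in the sensitive line, and 16.9% ± 0.101 and 30.7% ± 4.44 in the tolerant line, in control and stress libraries. Neither gene's shares overlapped between control and stress (exact permutation p = 0.1, the smallest possible, adjusted 0.175). These shares too are parts of the same whole and not independent. The lines overlapped in every shikimate kinase share, in control and under stress.

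EPSP synthase makes the substrate of chorismate synthase and is the target of the herbicide glyphosate. Its gene (LOC_Os06g04280, chromosome 6, 1816175 to 1819804, plus strand) stood at 73.3, 71.2 and 82.8 CPM in sensitive control and 58.9, 64.1 and 62.5 CPM in sensitive stress libraries. It stood at 77.6, 79.5 and 79.00 CPM in tolerant control and 46.2, 50.9 and 47.6 CPM in tolerant stress libraries. The tolerant stress libraries were the lowest, below all sensitive stress libraries. Its log2 fold change was -0.29 ± 0.07 (adjusted p = 0.00622, edgeR) in the sensitive line and -0.71 ± 0.07 (adjusted p = 6.26e-06) in the tolerant line. With library totals alone the sensitive value was 0.12, on the other side of 0 and not called. The difference of responses was -0.41 ± 0.10 (adjusted p = 0.0483), a call that was lost in 11 of the 12 fits that left out 1 library.

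Chorismate synthase closes the pathway. Chorismate synthase 2 (LOC_Os03g14990, chromosome 3, 8177749 to 8181743, minus strand) stood at 51.5, 47.5 and 44.5 CPM in sensitive control and 35.2, 38.2 and 35.6 CPM in sensitive stress libraries. It stood at 49.9, 43.3 and 46.8 CPM in tolerant control and 23.9, 26.3 and 29.00 CPM in tolerant stress libraries. Again the tolerant stress libraries lay below all others. The log2 fold change was -0.40 ± 0.09 (adjusted p = 0.00431, edgeR) in the sensitive line, which became 0.02 with library totals alone and was then not called, and -0.82 ± 0.09 (adjusted p = 1.45e-05) in the tolerant line. The difference of responses, -0.42 ± 0.13, did not pass (adjusted p = 0.116), while DESeq2 called it (adjusted p = 0.0447).

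Chorismate mutase turns chorismate towards phenylalanine and tyrosine. Chorismate mutase 2 (LOC_Os02g08410, chromosome 2, 4486471 to 4489409, minus strand) was the least counted of the 10 genes, with 127 to 280 counts per library. It ranged from 2.97 to 3.41 CPM in sensitive control, 1.71 to 2.64 CPM in sensitive stress, 2.35 to 3.22 CPM in tolerant control and 1.21 to 1.78 CPM in tolerant stress libraries. Control and stress did not overlap within a line. Its log2 fold change was -0.56 ± 0.23 in the sensitive line, which did not pass (adjusted p = 0.0833, edgeR), and -0.94 ± 0.23 in the tolerant line (adjusted p = 0.00749). The tolerant call was lost with library totals alone (adjusted p = 0.0519).

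**Figure D3:**
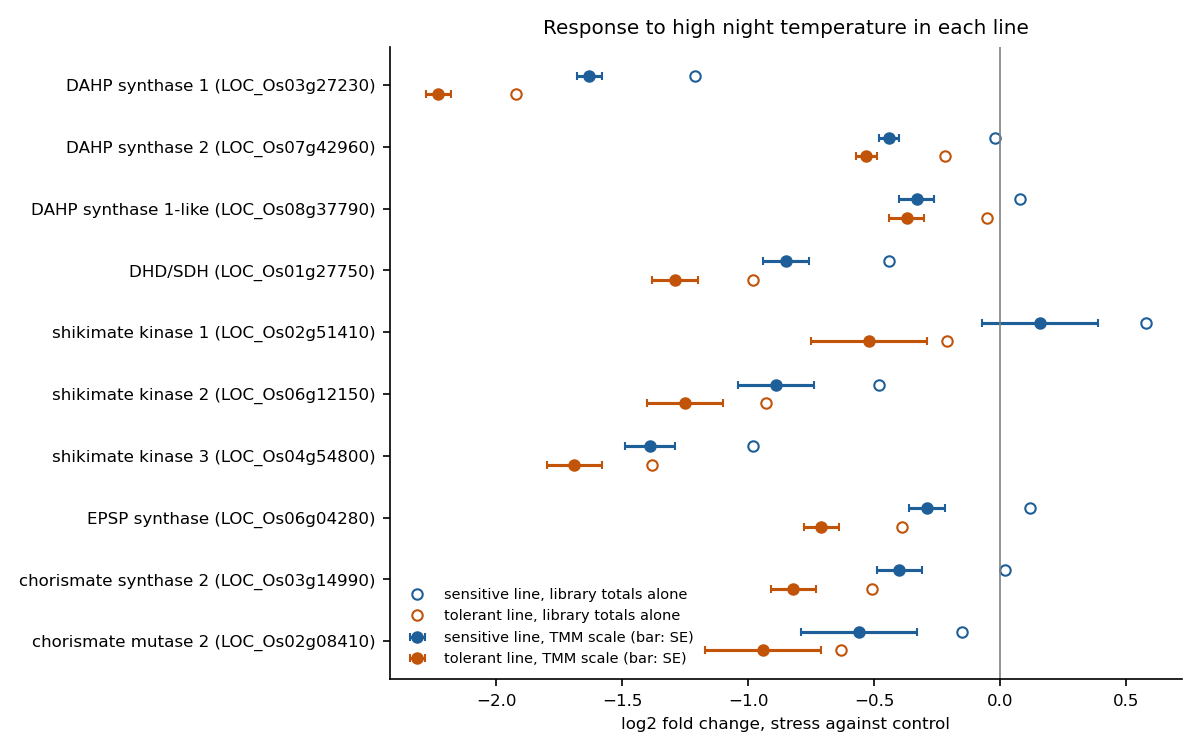
Log2 fold change between stress and control for each enzyme, on the horizontal axis, in the sensitive and the tolerant line. Filled points with bars are edgeR estimates ± SE on the TMM scale, and open points are the estimates with library totals alone. All 10 genes lie further to the left in the tolerant line on both scales, from -0.04 to -0.68 apart on the TMM scale. Among all tested rows, 50.3% do so on the TMM scale and 58.5% with library totals alone.

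Comparing the lines directly, none of the 10 genes was called in control libraries, where 2.53% of all tested rows were called higher and 2.89% lower in the tolerant line, 5.42% in all (edgeR). At an unadjusted p under 0.05 there were 4, all higher in the tolerant line, against 9.22% of all rows, and DESeq2 called 1 higher, against 4.70%. DAHP synthase 1 (LOC_Os03g27230) was the nearest to the threshold, at 0.18 ± 0.05 (adjusted p = 0.0572), and it was called by DESeq2 (adjusted p = 0.0143). Under stress 3 genes were lower in the tolerant line, against 1.69% of all rows called lower and 1.71% higher, 3.40% in all. They were DAHP synthase 1 at -0.43 ± 0.05 (adjusted p = 0.000329), EPSP synthase (LOC_Os06g04280) at -0.36 ± 0.07 (adjusted p = 0.0137) and chorismate synthase 2 (LOC_Os03g14990) at -0.46 ± 0.09 (adjusted p = 0.0134). The latter pair was not called with library totals alone, at adjusted p of 0.0688 and 0.0534. Without the second sensitive stress library or the first tolerant stress library, only DAHP synthase 1 was called. The call of EPSP synthase was also lost without the third sensitive stress library (adjusted p = 0.0506, edgeR) or the third tolerant stress library (adjusted p = 0.0566).

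The stress response itself was more negative in the tolerant line for 10 of 10 genes, against 50.3% of all tested rows. The median difference was -0.40 on the log2 scale, against 0.00 over all tested rows. Of the 10 genes, 2 passed, DAHP synthase 1 and EPSP synthase, against 1.34% of all rows called lower and 1.27% higher, 2.61% in all. At an unadjusted p under 0.05, 4 were lower, against 7.17% of all rows. With library totals alone the signs were the same in 10 of 10, where 58.5% of all rows were negative, and the median was -0.50 against -0.10 over all rows. All 10 differences use the same 12 libraries, so they are not independent of each other. For the other 8 genes the p-values do not show that the lines responded alike. Tissue markers differed in the same comparison. Both embryo markers were called lower (median difference -0.39), as were 2 of 5 endosperm markers, with 1 called higher (median -0.22), and 1 of 4 green tissue markers (median -0.35). Under stress, 2 of 2 embryo, 2 of 5 endosperm and 2 of 4 green tissue markers were lower in the tolerant line, and 1 endosperm and 1 green tissue marker were higher. The part of these markers' tissues in the differences between the lines was not tested.

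Levels of different genes were compared per length, with the deposited FPKM, which stands for fragments scaled by gene length and library size. In control libraries DAHP synthase 1 stood highest, at 165 ± 3.97 FPKM in the sensitive and 198 ± 2.68 FPKM in the tolerant line, followed by DAHP synthase 2 at 75.1 ± 1.44 and 85.5 ± 1.27 FPKM and EPSP synthase at 25.8 ± 2.41 and 28.4 ± 0.663 FPKM. Under stress DAHP synthase 2 stood first, at 74.1 ± 1.25 FPKM in the sensitive and 74.5 ± 2.88 FPKM in the tolerant line. DAHP synthase 1 then stood at 71.3 ± 3.10 FPKM in the sensitive line, overlapping DAHP synthase 2, and at 52.9 ± 2.77 FPKM in the tolerant line, with no overlap. At the low end, chorismate mutase 2 and shikimate kinase 2 overlapped in all 4 groups, between 0.658 and 1.55 FPKM. In stress libraries of both lines shikimate kinase 3 overlapped DHD/SDH, which overlapped shikimate kinase 1.

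Other genes annotated to the same steps were read from a list of 9 further genes. It includes LOC_Os01g01302 and LOC_Os10g42700, both described as probable inactive shikimate kinase-like, and its counts and medians include them. Counts and medians of this list and of those below are given on the TMM scale only. With library totals alone the median of all tested rows was 0.46 in the sensitive and 0.37 in the tolerant line, against 0.04 and 0.05. In the sensitive line 1 rose and 4 fell, with a median log2 fold change of -0.75, and in the tolerant line 1 rose and 3 fell, with a median of -0.81. Over all tested rows 16.3% were called higher and 15.9% lower in the sensitive line, and 16.7% and 16.6% in the tolerant line. Dehydroquinate synthase (LOC_Os09g36800), which closes the ring ahead of DHD/SDH, went from 41.9 ± 3.67 to 20.2 ± 3.22 CPM in the sensitive line and from 47.4 ± 1.19 to 15.4 ± 2.11 CPM in the tolerant line (log2 fold changes -1.05 ± 0.12 and -1.62 ± 0.13). A plastid chorismate mutase (LOC_Os12g38900) stood per length at 80.7 FPKM in sensitive control libraries, against 1.38 FPKM for chorismate mutase 2. In CPM it was at 176 ± 6.25 and 77.1 ± 3.41 CPM in the sensitive and 162 ± 6.39 and 84.7 ± 2.25 CPM in the tolerant line, and fell by 1.19 ± 0.06 and 0.94 ± 0.06 on the log2 scale. Chorismate mutase 3 (LOC_Os01g55870) fell by 1.13 ± 0.18 and 1.61 ± 0.18.

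The gene that rose in both lines was a second DHD/SDH (LOC_Os12g34874), named here after its values were seen. It went from 18.2 ± 1.77 to 22.4 ± 1.88 CPM in the sensitive line (log2 fold change 0.30 ± 0.10, adjusted p = 0.0329, edgeR) and from 17.4 ± 1.12 to 22.3 ± 1.41 CPM in the tolerant line (0.36 ± 0.10, adjusted p = 0.0132), opposite in direction to the DHD/SDH at LOC_Os01g27750. A further gene annotated as chorismate mutase 2 (LOC_Os08g34290) had no count in any tolerant stress library and 0 to 49 counts elsewhere, too few for a fold change. With it set to a floor of 3 counts per library the list's median in the tolerant line stayed at -0.81.

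**Figure D4:**
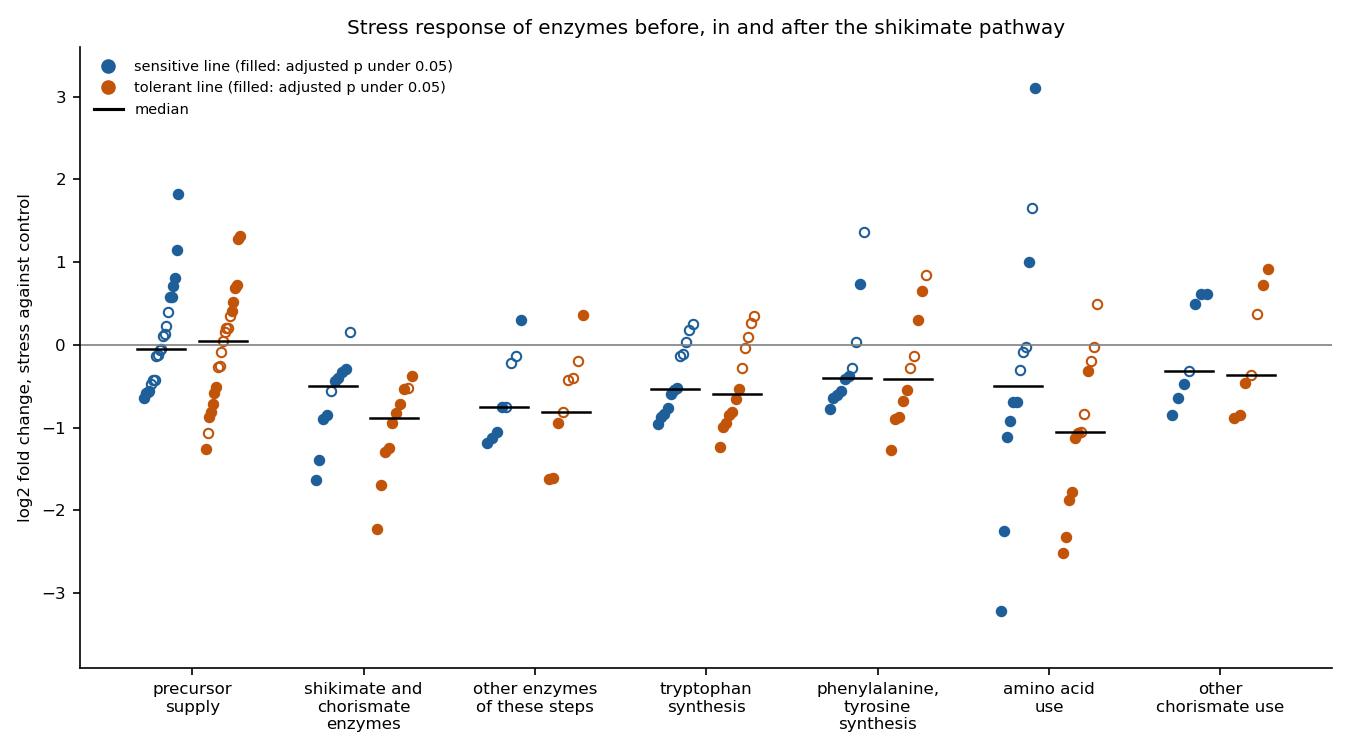
Log2 fold change between stress and control, on the vertical axis, for the 10 enzymes and 6 lists of genes before, beside and after them, in the sensitive and the tolerant line. Each point is 1 gene, filled where edgeR's adjusted p is under 0.05, and each black line is the median of all tested genes of the list. LOC_Os08g34290, with no count in the tolerant stress libraries, is counted in the median and not drawn. The list drawn as other chorismate use is mostly of genes that make or use homogentisate, which comes from tyrosine. The median of the 10 enzymes is -0.50 and -0.88, and that of the precursor supply list is -0.05 and 0.05.

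Upstream, 21 genes of glycolysis, the pentose phosphate pathway and plastid transport that supply the precursors moved both ways. In the sensitive line 6 rose and 3 fell (median -0.05), and in the tolerant line 6 rose and 6 fell (median 0.05). Without a row that joins a glucose-6-phosphate dehydrogenase to a transcription factor (LOC_Os03g20300 and LOC_Os03g20310), 2 and 5 fell, and the medians were 0.03 and 0.10. Over all tested rows 16.3% were called higher and 15.9% lower in the sensitive line, and 16.7% and 16.6% in the tolerant line. The plastid phosphoenolpyruvate translocator 2 (LOC_Os08g25624) went from 4.51 ± 0.729 to 15.9 ± 1.10 CPM in the sensitive line and from 5.68 ± 0.663 to 14.2 ± 1.17 CPM in the tolerant line (log2 fold changes 1.82 ± 0.14 and 1.32 ± 0.14). A plastid transketolase (LOC_Os06g04270), which makes erythrose 4-phosphate, lies beside EPSP synthase on the opposite strand. It fell by 1.26 ± 0.25 in the tolerant line (adjusted p = 0.00183, edgeR), and its sensitive control libraries were spread from 114 to 209.7 CPM.

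Downstream, 12 tested genes of tryptophan synthesis included none that was called higher, while 6 fell in the sensitive (median -0.53) and 7 in the tolerant line (median -0.59). Anthranilate synthase alpha subunit 1 (LOC_Os03g61120) is named here after its values were seen. Though not called higher, it went from 66.1 ± 15.1 to 84.0 ± 4.69 CPM in the tolerant line, with no overlap. In the sensitive line it stood at 65.7 ± 17.2 and 60.9 ± 1.65 CPM, with overlap. The tryptophan synthase beta chain (LOC_Os08g04180) fell by 0.96 ± 0.09 and 1.23 ± 0.09 on the log2 scale. One of these rows (LOC_Os04g39260 and LOC_Os04g39270) joins an indole-3-glycerol phosphate synthase to a ribonuclease, and without it 5 and 6 of 11 fell. The shares of all tested rows called lower were 15.9% in the sensitive and 16.6% in the tolerant line, and those called higher 16.3% and 16.7%. Of 10 tested genes of phenylalanine and tyrosine synthesis, 1 rose and 6 fell in the sensitive line (median -0.39), and 2 rose and 5 fell in the tolerant line (median -0.41). A row described first as a zinc finger protein (LOC_Os06g49510) is among them and passed in neither line, and without it the medians were -0.41 and -0.55. Arogenate dehydratases, which make phenylalanine, went in opposite directions. The one at LOC_Os04g33390 was at 20.7 ± 0.245 and 13.7 ± 1.13 CPM in the sensitive line and 18.2 ± 1.14 and 7.52 ± 0.825 CPM in the tolerant line, and its response differed between the lines by -0.67 ± 0.14 (adjusted p = 0.0249, edgeR). The one at LOC_Os03g17730 rose by 0.73 ± 0.10 and 0.65 ± 0.10.

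Among 12 tested genes that use these amino acids, 2 were called higher and 6 lower in the sensitive line (median -0.49), and none higher and 7 lower in the tolerant line (median -1.06). The shares of all tested rows were 16.3% higher and 15.9% lower in the sensitive line, and 16.7% and 16.6% in the tolerant line. Phenylalanine ammonia-lyase opens the route to lignin and flavonoids. Its genes are close copies of each other, so counts could be split between them. The gene at LOC_Os02g41680 went from 385 ± 17.5 to 178 ± 1.72 CPM in the sensitive line and from 453 ± 15.8 to 79.1 ± 3.91 CPM in the tolerant line, and the lines' responses differed by -1.41 ± 0.07 (adjusted p = 1.24e-06, edgeR). A pair of further copies is given here after their values were seen. LOC_Os02g41630 stood at 1985 ± 32.3 and 1955 ± 50.96 CPM in the sensitive line, a log2 fold change of -0.02 ± 0.04 that did not pass (adjusted p = 0.739, edgeR), and it fell from 2172 ± 114 to 1739 ± 52.3 CPM in the tolerant line. LOC_Os02g41650 stood at 478, 512 and 537 CPM in sensitive control and 1620.2, 1610.0 and 1575 CPM in sensitive stress libraries, with no overlap, and its log2 fold change of 1.65 ± 0.60 did not pass (adjusted p = 0.0523, edgeR). In the tolerant line it stood at 2803, 439 and 2873 CPM in control and 1327, 288 and 1331 CPM in stress libraries, where the second library of each group lay far below the others. Tryptophan decarboxylase (LOC_Os08g04560) fell in both lines, from 14.5 ± 0.247 to 1.55 ± 0.244 CPM in the sensitive line and from 16.7 ± 0.39 to 3.34 ± 0.598 CPM in the tolerant line, and here the sensitive line fell further, with a difference of responses of 0.90 ± 0.20 (adjusted p = 0.0361, edgeR). A gene annotated as tyrosine decarboxylase (LOC_Os01g56380) was called higher in the sensitive line from very few counts, 15, 2 and 0 in control and 102, 42 and 60 under stress. Of 7 genes in other uses of chorismate, 3 rose and 3 fell in the sensitive line (median -0.31), and 2 rose and 3 fell in the tolerant line (median -0.36). Rows of this list join isochorismate synthase to a mitochondrial porin (LOC_Os09g19734) and a homogentisate phytyltransferase to an uncharacterized protein (LOC_Os07g38840 and LOC_Os07g38850). Without these rows 1 of 5 fell in each line and the medians were 0.50 and 0.37, on the other side of 0. Of the genes left, only aminodeoxychorismate synthase (LOC_Os06g48620) acts on chorismate itself, so these medians mostly describe steps beyond tyrosine. The prenyltransferase of tocotrienol synthesis (LOC_Os06g43880) rose by 0.62 ± 0.10 and 0.92 ± 0.10, while the homogentisate phytyltransferase of tocopherol synthesis (LOC_Os06g44840) fell by 0.85 ± 0.09 and 0.88 ± 0.09.

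The profile of DAHP synthase 1 over the 12 libraries was most like those of plant cysteine oxidase 3 (LOC_Os03g45210) and granule-bound starch synthase 1 (LOC_Os06g04200), each with Pearson's r of 0.999, and serine hydroxymethyltransferase 4 (LOC_Os11g26860), with r of 0.998, among 24942 candidates. The starch synthase is 1 of the 5 endosperm markers above. The profile of chorismate synthase 2 was most like those of a glucuronoxylan methyltransferase (LOC_Os11g13870) and a TLC domain protein (LOC_Os05g23700), each with r of 0.984. These values describe 12 libraries that fall into control and stress groups, and any gene with a large stress response shares much of that pattern.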

How the data were processed

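Ribosomal RNA was depleted and second strands were marked with dUTP, per the labels' protocols. The authors deposited a table of whole-number counts and FPKM values per row. The submitters' processing notes name edgeR, DESeq2, StringTie 2.1.6, HISAT2 2.2.1 and cutadapt 1.9 without saying which made which value, and a mouse build, mm10, although the table carries rice MSU identifiers. The build of the coordinates, printed as the table gives them, is therefore not given in the sources used here. Of the counts from 1 to 20, 37.6% to 40.8% per library were multiples of 4, so dividing by 4 was an alternative.

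The main test was that of edgeR 4.0.16, run in R 4.3.3 (filterByExpr, TMM, quasi-likelihood F test, 4 group means, 8 residual degrees of freedom, Benjamini-Hochberg adjustment over 33281 rows, called under 0.05). Alternatives used RLE factors, library totals, no filter, DESeq2 1.42.0, limma 3.58.1 on log2(FPKM + 1) and log2(FPKM + 0.1), a replicate block, only the groups compared, and each library left out. Shares were tested by exact permutation. Members and gene lists were chosen with earlier results of these data known. List rows were matched by description, with an enolase-phosphatase left out and a variant spelling of phosphoribosylanthranilate isomerase admitted once the table was seen. Counts without 5 rows that also describe another protein, and share intervals from counts divided by 4, were added after seeing the data. Named list genes are at most 3 per list and comparison with the largest change among those called. No library was left out.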

Additional observations from a re-analysis of the deposited data

Results flagged for a closer look

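In 9 rows of these enzymes and the gene lists around them the stress response differed between the lines by a test of the difference itself (edgeR interaction contrast, adjusted over all tested rows). These were 2 of the 10 enzymes, 1 of 10 tested genes of phenylalanine and tyrosine synthesis and 1 of 21 of precursor supply. Of 12 that use these amino acids, 4 were lower and 1 higher. None was called among 12 of tryptophan synthesis, 9 of the same steps and 7 around chorismate and homogentisate. Over all tested rows 2.61% were called in this contrast, 1.34% lower and 1.27% higher. DAHP synthase 1 (LOC_Os03g27230) differed by -0.61 on the log2 scale, with the larger fall in the tolerant line. EPSP synthase (LOC_Os06g04280) differed by -0.41, at an adjusted p of 0.0483 that most fits with 1 library fewer did not keep. An arogenate dehydratase (LOC_Os04g33390) differed by -0.67, and phenylalanine ammonia-lyases differed by -1.41 (LOC_Os02g41680) and -1.09 (LOC_Os05g35290). Smaller differences were those of the phenylalanine ammonia-lyase at LOC_Os02g41630, at -0.30, and of the similar row LOC_Os04g43760 and LOC_Os04g43770, at -0.43. Counts of these close copies could be split between them, so the phenylalanine ammonia-lyase rows may not be separate results. A 6-phosphogluconate dehydrogenase (LOC_Os06g02144) differed by -0.45. A tryptophan decarboxylase (LOC_Os08g04560) differed by 0.90, with the larger fall in the sensitive line.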

How the results depend on the processing

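The fall of DAHP synthase 1, DHD/SDH and shikimate kinase 3 under stress was called in both lines in each alternative run. The counts of called genes moved with the scale. In the sensitive line 8 genes became 4 with library totals alone, 4 with limma on log2(FPKM + 1) and 3 on log2(FPKM + 0.1). With these 3 settings, in that order, DAHP synthase 1-like was at 0.08, 0.07 and 0.08, EPSP synthase at 0.12 in each and chorismate synthase 2 at 0.02 in each. Among called rows 83.6% were higher with library totals in the sensitive and 76.8% in the tolerant line, against 50.6% and 50.2%. In the control comparison of the lines the count was 1 with RLE, with library totals and with DESeq2, and 3 with each FPKM setting. There shikimate kinase 2 was at 0.03, 0.01 and 0.01 and chorismate synthase 2 at 0.08, 0.04 and 0.05 with library totals and the FPKM settings. Under stress the count between lines was 1 with library totals. The count of differing responses was 1 with library totals, 1 without a filter, 1 with the replicate block and 4 with DESeq2. The causes of these shifts were not tested.

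Leaving out each library gave 8 to 8 and 9 to 10 calls for stress in the sensitive and tolerant line, 0 to 1 and 1 to 3 between lines in control and stress, and 1 to 2 for the difference of responses. Differences between lines changed sign for shikimate kinase 3 (-0.05 to 0.09) and chorismate synthase 2 (-0.09 to 0.02) in control and ranged from 0.00 to 0.03 for DAHP synthase 2 under stress. The share of DAHP synthase 1 differed by -21.04 to -20.12 and -29.36 to -28.73 points, and that of shikimate kinase 3 by -20.28 to -16.97 and -16.36 to -12.74 points.

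Whether equal replicate numbers mark pairs was not settled. Same-numbered libraries correlated at -0.0123 to 0.0287 in their deviations, differently numbered ones at -0.0242 to 0.02, and 6 of 12 libraries correlated best with their own number. Between control and stress of the sensitive line, same-numbered pairs were at 0.0287, 0.0274 and 0.0138, and differently numbered ones were all negative. Deviations from a group's mean cancel over its libraries, so a positive value for a pair pushes the library's other values below 0. The negative signs are thus no separate evidence. In the tolerant line same-numbered pairs were at -0.00872, -0.0105 and 0.0138. Values this small over all rows cannot decide the question. The replicate block called 8, 9, 0, 3 and 1 of the 10 genes in the 5 comparisons. The difference of responses could not be fitted on only the groups of 1 comparison, since it needs all 4.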
